A study of Homo sapiens with 36 samples.

Results

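PIANP, ZNF384, COPS7A, MLF2, PTMS, LAG3 and CD4 are 7 genes that lie next to each other on the short arm of human chromosome 12, in band 12p13. PIANP, ZNF384 and LAG3 were chosen because their counts were higher after activation of MEIS1 than in the matching control, and the other 4 because they stand beside or between them. The 7 genes are among 28516 gene symbols in the count table, of which 19689 held enough counts to be tested. MEIS1 and MEIS2 are paralogous homeodomain transcription factors. They were switched on or knocked out in cultured human neural stem cells (hNSC, a commercial line of neural progenitors), and RNA was sequenced 48 h after lentiviral transduction, in 6 groups of 6 libraries. For activation, cells carried a nuclease-dead Cas9 fused to VP64, the MS2-p65-HSF1 activator complex and a single guide RNA, directed at MEIS1 (MEIS1-OE), at MEIS2 (MEIS2-OE) or at no human sequence (ctrl-OE). For knockout, cells carried the active Cas9 nuclease with a mix of 2 guides for MEIS1 (MEIS1-KO) or MEIS2 (MEIS2-KO), or with a non-targeting guide (ctrl-KO). No sorting of transduced cells is described, so a library may hold cells with and without the vectors, and fewer expressing cells cannot be told apart from less RNA per cell.

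The neighbourhood is dense and its genes do unrelated work. PIANP encodes a membrane protein of neurons that binds PILRA, an inhibitory receptor of myeloid cells. ZNF384 is a zinc finger transcription factor known as a fusion partner in acute leukaemia. COPS7A is a subunit of the COP9 signalosome, which strips NEDD8 from cullin ubiquitin ligases, MLF2 is a paralog of the myeloid leukaemia factor MLF1, and PTMS, parathymosin, is a small acidic nuclear protein related to prothymosin alpha. LAG3 and CD4 are related receptors of T cells that both bind MHC class II, LAG3 as an inhibitory receptor and CD4 as the coreceptor of helper T cells. A CRISPR activator works where its guide pairs with DNA beside a short motif called the PAM, which reads NGG for this Cas9. It raises transcription from start sites near the place where it binds, and the bases next to the PAM matter most for pairing.

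On GRCh37, PIANP (ENSG00000139200) runs from 6802957 to 6809981 on the minus strand, and ZNF384 (ENSG00000126746) lies beyond its end, from 6775643 to 6798738, also on the minus strand. On the other side come COPS7A (ENSG00000111652, 6833180 to 6841041, plus strand), MLF2 (ENSG00000089693, 6857162 to 6876641, minus strand), PTMS (ENSG00000159335, 6874682 to 6880118, plus strand), LAG3 (ENSG00000089692, 6881678 to 6887621, plus strand) and CD4 (ENSG00000010610, 6896024 to 6929965, plus strand). Measured from the PIANP start, the ZNF384 start was 11.2 kb away, and those of COPS7A, PTMS, MLF2, LAG3 and CD4 were 23.2, 64.7, 66.7, 71.7 and 86.0 kb away in the other direction. MLF2 and PTMS overlap at their starts on opposite strands. The strand setting of the counting is not given in the sources used here, so reads from their shared stretch cannot be assigned with certainty.

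The site for which the MEIS1 activation guide was designed, and the site most like it on 12p13, are shown because the second lies inside PIANP. The 7 bases next to the PAM of the guide, GGCGGAG followed by NGG, occurred at 1 place in the RefSeq promoter of MEIS1, and the 20 bases before the PAM were read there from the reference. In the lines below, both read 5′ to 3′ on the minus strand of GRCh37, capitals mark the bases that both share next to the PAM and the PAM itself, and lower case marks the remaining bases of the 20.
MEIS1 site, chr2:66662274-66662296: tgtgtgtTGCACAGGCGGAGAGG
PIANP site, chr12:6809160-6809182: gtggggaTGCACAGGCGGAGGGG
The 2 sites shared an unbroken run of 13 bases next to the PAM, and 5 of the 20 bases differed. The PIANP site lay 799 bases inside the gene. It fell in an intron of each of the 3 annotated PIANP transcripts that span it, under no annotated exon, and 5 bases before the start of a shorter PIANP transcript.
The intron stretch around it, chr12:6809156-6809300 on the minus strand, with the site and its PAM in capitals, is shown to place the match.
PIANP intron: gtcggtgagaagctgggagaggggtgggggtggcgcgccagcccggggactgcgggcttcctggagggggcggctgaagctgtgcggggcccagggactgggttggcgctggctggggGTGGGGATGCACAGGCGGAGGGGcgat

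Over all chromosomes of GRCh37, 2 sites next to NGG shared 13 or more of these bases with the guide site: the MEIS1 site itself and the PIANP site. At least 12 shared bases were found at 12 sites, and at least 10 at 99 sites. Of 16910 tested genes with a position, PIANP was the 1 gene (0.00591%) with a run of 13 or more within 1 kb of its annotated start. In the same window 19 genes (0.112%) had a run of 10 or more. The MEIS1 site lay 1701 bases from the annotated MEIS1 start, so a window of 1 kb misses the intended site. Within 500 kb of the PIANP start, the next longest runs were 9 bases, at 2 places, and 8 bases, 1929 bases from the NCAPD2 start. The first run of 9 lay inside IFFO1, 7860 bases from the nearest start, that of GAPDH. The other lay in an exon of CD4, 5455 bases from the nearest start, that of GPR162. None of the other 6 genes had a run of 8 or more within 1 kb of its start. The PIANP site was 10.4 kb from the start of ZNF384, 24.0 kb from that of COPS7A, 72.5 kb from that of LAG3 and 86.9 kb from that of CD4. Whether the activator bound at PIANP was not tested.

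Library totals ran from 15429985 to 22940493 counts. The targeted genes followed the labels. MEIS1 was at 310.2 ± 14.3 CPM (SD, n = 6) in MEIS1-OE against 17.8 ± 1.10 in ctrl-OE, and at 8.96 ± 1.74 in MEIS1-KO against 25.7 ± 1.66 in ctrl-KO. MEIS2 was at 824 ± 20.04 CPM in MEIS2-OE against 22.6 ± 1.23, and at 12.1 ± 0.936 in MEIS2-KO against 25.8 ± 1.58. Neural stem cell markers were abundant in every library, with at least 1869 counts of SOX2 and 16582 of NES. Nothing in the labels ties the 6 libraries of a group to separate cultures, so p-values measure the spread between these libraries, which may be technical.

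PIANP was the gene of the group with the largest difference after MEIS1 activation. In CPM, the count scaled to the size of its library, the lowest, median and highest of the 6 ctrl-OE libraries were 21.5, 25.8 and 27.4, and those of the 6 MEIS1-OE libraries were 100.6, 124.7 and 133.7. The lowest MEIS1-OE library was thus far above the highest control, and the log2(fold-change) was 2.28 ± 0.08 (SE), or 4.84-fold. These counts chose the gene, so this and the other MEIS1 values of the 7 genes are a description with no test. In MEIS1-KO, PIANP was at 14.6, 15.6 and 20.7 CPM, overlapping the 15.3, 16.5 and 20.01 of ctrl-KO, and the log2(fold-change) was -0.05 ± 0.09. The knockout used other guides than the activation. MEIS1 itself was lower in the MEIS1-KO libraries, with a log2(fold-change) of -1.52 ± 0.08.

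**Figure D1:**
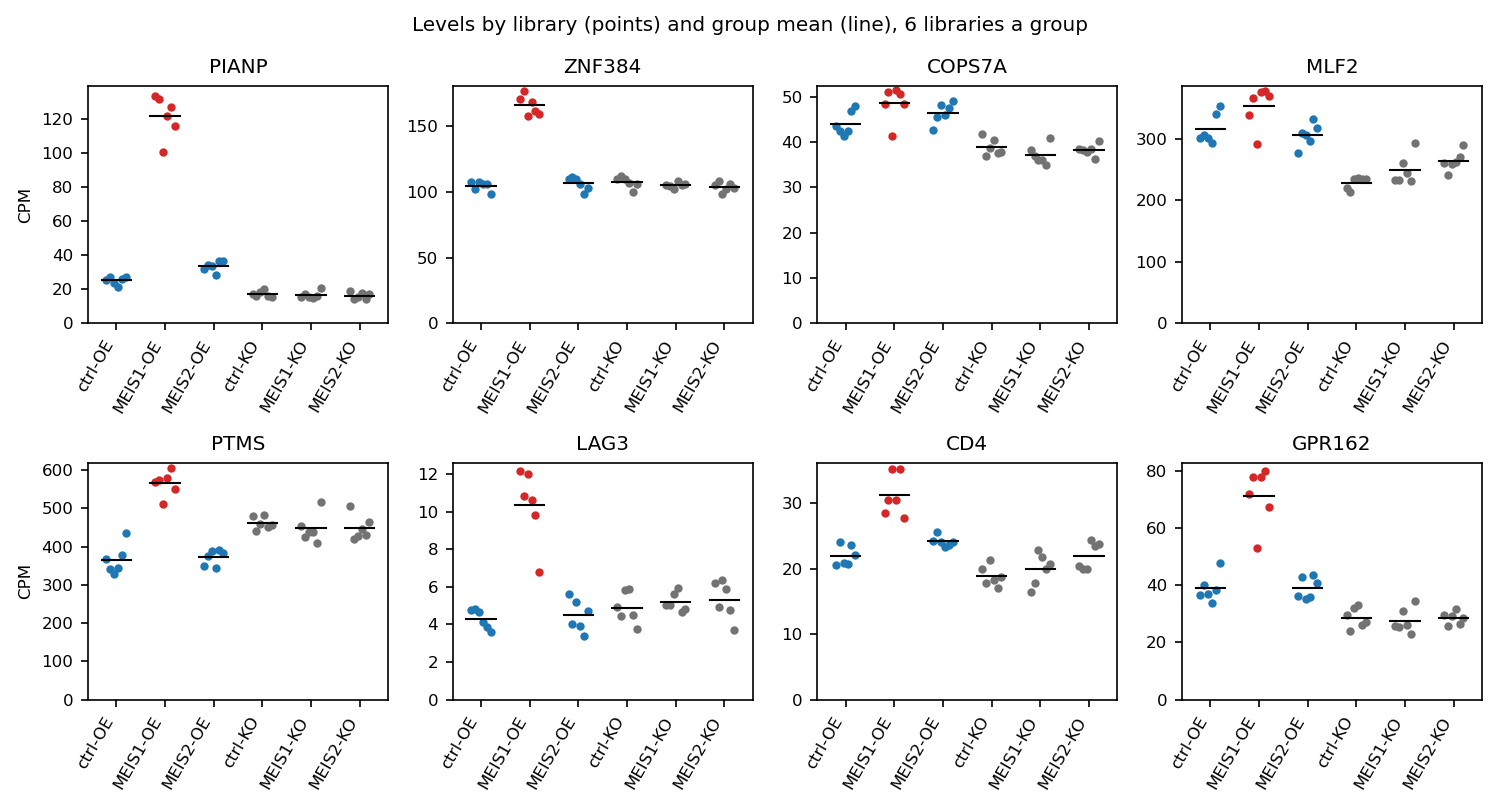
CPM (y axis, from 0, a scale of its own in each panel) of the 7 genes and of GPR162, a gene on the far side of CD4, in 36 libraries. Each point is a library, each line the mean of 6, red points are MEIS1-OE, blue points the other activation groups and grey points the knockout groups. PIANP, ZNF384, PTMS, LAG3, CD4 and GPR162 in MEIS1-OE sit above all ctrl-OE points, while COPS7A and MLF2 overlap them.

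ZNF384 and LAG3, on either side of PIANP, were both higher in each MEIS1-OE library than in any control. ZNF384 had its lowest, median and highest library at 98.1, 106.2 and 107.7 CPM in ctrl-OE and at 158.0, 165.0 and 176.8 CPM in MEIS1-OE, a log2(fold-change) of 0.67 ± 0.04. In the other 4 groups the ZNF384 mean stayed between 104 and 107 CPM, and all their ranges overlapped. LAG3 was scarce, with 77 to 119 counts in the ctrl-OE libraries and 151 to 240 in those of MEIS1-OE. Its levels were 3.61, 4.38 and 4.81 CPM in ctrl-OE and 6.80, 10.7 and 12.2 CPM in MEIS1-OE, a log2(fold-change) of 1.26 ± 0.13. The lowest of these, replicate 6, was still above the highest control.

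Of the 4 genes added for their position, PTMS and CD4 did not overlap their controls and COPS7A and MLF2 did. PTMS was at 328, 356 and 435 CPM in ctrl-OE and at 513, 571 and 606 CPM in MEIS1-OE, a log2(fold-change) of 0.63 ± 0.06. CD4 was at 20.5, 21.5 and 24.0 CPM in ctrl-OE and at 27.8, 30.5 and 35.2 CPM in MEIS1-OE, a log2(fold-change) of 0.51 ± 0.07. Both lie farther from PIANP than COPS7A does. COPS7A, the next gene after PIANP on that side, was at 41.4, 43.1 and 48.0 CPM in ctrl-OE and at 41.5, 49.6 and 51.6 CPM in MEIS1-OE, a log2(fold-change) of 0.14 ± 0.05. MLF2 was at 294, 304 and 354 CPM in ctrl-OE and at 291, 368 and 378 CPM in MEIS1-OE, a log2(fold-change) of 0.16 ± 0.06. Replicate 3 of MEIS1-OE was the lowest of its group for PIANP, ZNF384, COPS7A, MLF2 and PTMS, though not for LAG3 or CD4. Its MEIS1 level of 310.0 CPM was near the group mean.

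The difference did not fall off evenly with distance. PIANP at 0 kb had 2.28 on the log2 scale, ZNF384 at 11.2 kb had 0.67, COPS7A at 23.2 kb had 0.14 and LAG3 at 71.7 kb had 1.26. Of all tested genes, 3.17% were higher in all MEIS1-OE libraries than in any ctrl-OE library, and 2.24% were called higher, which here means an adjusted P under 0.05 with a log2(fold-change) above 0.58. Since 3 of the 7 genes were picked by this comparison, no share of them is read against these percentages.

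Per length, PIANP moved past 2 of its neighbours. Levels divided by exon length were, in ctrl-OE, 214 ± 22.5 CPM per kb for PTMS, 94.0 ± 7.32 for MLF2, 20.2 ± 0.737 for ZNF384, 15.5 ± 0.934 for COPS7A, 7.68 ± 0.698 for PIANP, 4.82 ± 0.336 for CD4 and 1.41 ± 0.167 for LAG3 (SD, n = 6). In MEIS1-OE, PIANP stood at 37.2 ± 3.74 CPM per kb, above COPS7A at 17.1 ± 1.32 and ZNF384 at 32.0 ± 1.43. LAG3, at 3.40 ± 0.644 CPM per kb, remained the lowest of the group in every condition.

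The genes around the 7 were chosen by position alone and could be tested. Within 500 kb of the PIANP start, 49 genes of the table could be placed and 46 of them were tested, 39 without the 7. In MEIS1-OE against ctrl-OE, 1 of these 39 was called, GPR162, which encodes an orphan receptor and starts 120.8 kb from PIANP, just past CD4. GPR162 was at 33.8, 37.5 and 47.7 CPM in ctrl-OE and at 52.99, 74.7 and 79.95 CPM in MEIS1-OE. The groups did not overlap, and the log2(fold-change) was 0.88 ± 0.09 (edgeR quasi-likelihood test, adjusted P = 3.9e-09). The share called, 2.56% of 39, was near the 2.84% of all tested genes called in this comparison.

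By adjusted P alone, 9 of the 39 neighbours passed, 5 higher and 4 lower, or 23.1% against 9.10% of all tested genes (5.52% higher and 3.58% lower). Besides GPR162, the higher genes were LEPREL2, a collagen prolyl hydroxylase also named P3H3 (0.52 ± 0.13, adjusted P = 0.0070 by edgeR), GNB3, a G protein beta subunit (0.51 ± 0.09, adjusted P = 4.8e-05), ENO2, the neuronal enolase (0.42 ± 0.04, adjusted P = 7.0e-10) and TNFRSF1A, a receptor of tumour necrosis factor (0.32 ± 0.06, adjusted P = 0.00016). LEPREL2, GNB3 and ENO2 start 127.6, 139.1 and 212.9 kb from PIANP on the side of CD4, while TNFRSF1A lies 358.7 kb away on the side of ZNF384. GPR162 and LEPREL2 overlap on the same strand, so reads from the overlap can belong to either. The lower genes were CDCA3, a regulator of mitotic entry (-0.25 ± 0.05, adjusted P = 0.00042), LPCAT3, a phospholipid acyltransferase (-0.24 ± 0.06, adjusted P = 0.0024), NCAPD2, a condensin subunit (-0.13 ± 0.04, adjusted P = 0.029) and C1RL-AS1, an antisense RNA (-0.46 ± 0.09, adjusted P = 0.00034). LEPREL2 no longer passed by adjusted P without replicate 4 or 5, nor NCAPD2 without replicate 1, 2, 4, 5 or 6. Their adjusted P then ranged up to 0.072 and 0.13.

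Of the 5 genes that passed as higher, 4 lay on the side of CD4, all within 250 kb. On that side, from 100 to 250 kb past PIANP, 11 of 12 tested genes were above 0, with a median log2(fold-change) of 0.21, and 4 passed by adjusted P as higher and 1, CDCA3, as lower. On the other side, from 100 to 250 kb, 4 of 8 were above 0, with a median of 0.02, and 1, NCAPD2, passed, as lower. From 250 to 500 kb the sides stood the other way round. On the side of CD4 5 of 10 genes were above 0 there, with a median of 0.01, and 2, LPCAT3 and C1RL-AS1, passed, both lower, while on the side of ZNF384 4 of 5 were above 0, with a median of 0.36, and 1, TNFRSF1A, passed, as higher. The median over all tested genes was -0.0013. The genes next to ZNF384 did not pass: ING4, a chromatin reader, had 0.05 (adjusted P = 0.67 by edgeR), ACRBP, a sperm protein, -0.03 (0.97), LPAR5, a lysophosphatidic acid receptor, -0.02 (0.98) and CHD4, the ATPase of the NuRD complex, 0.06 (0.37).

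**Figure D2:**
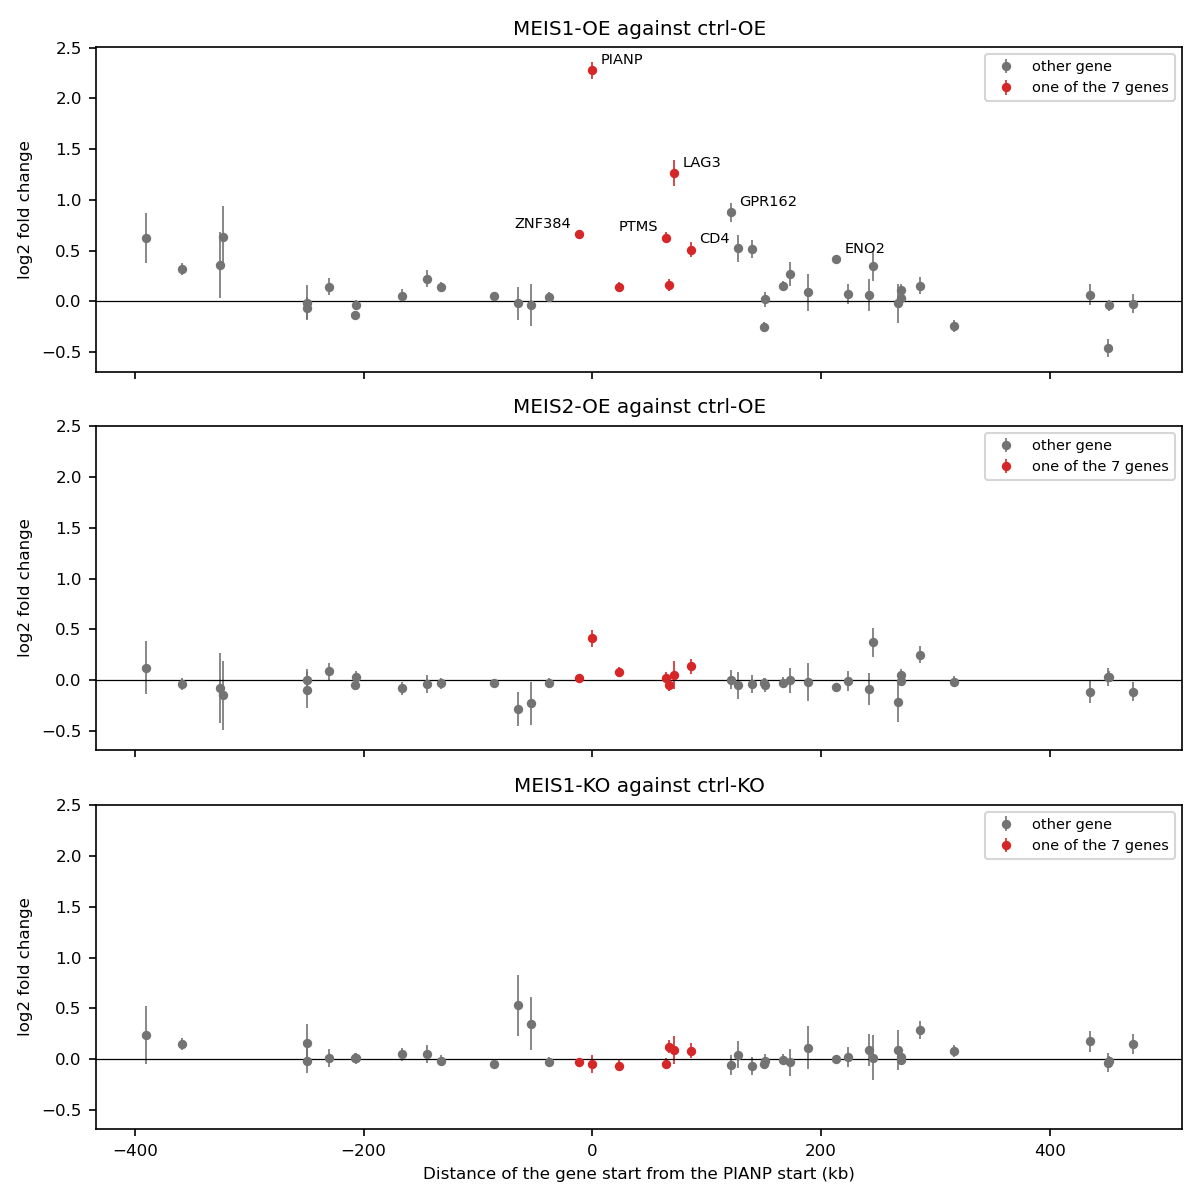
log2(fold-change) with its SE (y axis, bars are 1 SE) against the distance of each gene start from the PIANP start in kb (x axis), for MEIS1-OE, MEIS2-OE and MEIS1-KO against their controls. Red points are the 7 genes and grey points the other tested genes within 500 kb; of 46 genes, 44, 44 and 42 with an SE under 0.35 are drawn. In MEIS1-OE the points of PIANP (2.28), LAG3 (1.26), GPR162 (0.88) and ZNF384 (0.67) stand above all others drawn, and in MEIS2-OE PIANP, at 0.41, is the highest point.

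The windows around the genes at which the activators were aimed held little to compare. Within 500 kb of the MEIS1 start the 1 tested gene was MEIS1-AS3, an antisense RNA that overlaps the targeted start, with 0 to 19 counts over all libraries. Its fitted log2(fold-change) in MEIS1-OE was 4.69 ± 0.39 (adjusted P = 7.7e-12 by edgeR), and a larger prior count lowered it to 2.77. The strand setting of the counting is not given, so these few reads cannot be told from reads of MEIS1 with certainty. Within 500 kb of the MEIS2 start no gene was tested.

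Genes elsewhere in the genome were then grouped by the longest run they shared with the MEIS1 guide site within 1 kb of their start, leaving out the 7 genes and MEIS1. This grouping was made after the PIANP values were known, and it uses sequence alone. Of 16513 genes with no run of 8 or more, 2.23% were called higher in MEIS1-OE against ctrl-OE. With a run of 8 bases it was 15 of 285 genes (5.26%), with 9 bases 9 of 86 (10.5%), and with 10 or more 7 of 18 (38.9%), beside 2.24% of all tested genes. These are edgeR calls, and DESeq2 called 6 of the 18. None of the 18 was called lower, nor of the 86, and 2 of the 285 were. Among the 18 were PPT2, a lysosomal thioesterase (log2(fold-change) 1.20 ± 0.06, adjusted P = 8.8e-19 by edgeR), RNF39, a RING finger protein (2.26 ± 0.19, adjusted P = 7.2e-12), and USP38, a deubiquitinase (1.01 ± 0.06, adjusted P = 6.9e-16). PPT2 and PPT2-EGFL8 share sequence and count as 2 genes here. PRRT1, on chromosome 6 as they are and also with a run of 11, passed by adjusted P alone (0.46 ± 0.14, adjusted P = 0.025 by edgeR). Genes that share a site are not independent, and shared sites were not counted. PROK1, also called higher, had 3.65 ± 0.93 (adjusted P = 0.0096 by edgeR), the widest SE of the 18. DAP and AGO1, with runs of 11 bases, had -0.04 ± 0.04 (adjusted P = 0.68) and -0.04 ± 0.05 (adjusted P = 0.73).

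In MEIS1-KO, MEIS2-OE and MEIS2-KO, 0 of these 18 genes were called by edgeR or DESeq2, beside 0.290%, 0.498% and 1.58% of all tested genes, shares so low that nothing is read from the absence of calls among 18. Between the 2 control groups, which lack the MEIS1 activation guide as well, 3 of the 18 were called and 7 passed by adjusted P alone, beside 22.1% and 51.4% of all tested genes. By adjusted P alone in edgeR, 8 of them were higher in MEIS1-OE (5.52% of all tested genes), 0 passed in MEIS1-KO (1.46%) or MEIS2-OE (1.35%), and 1 was lower in MEIS2-KO (10.0% in either direction). At an unadjusted P under 0.05 the counts were 10 in MEIS1-OE, 1 in MEIS1-KO, 0 in MEIS2-OE and 3 in MEIS2-KO. The MEIS2 guide site, read from GRCh37 in the same way within 1 kb of the MEIS2 start (chr15:37392537-37392559, plus strand), had no run of 8 or more within 500 kb of PIANP. Of 5 genes with a run of 10 or more to it, 0 were called in MEIS2-OE by edgeR or DESeq2 and 0 had an unadjusted P under 0.05, beside 0.498% of all tested genes called. With a share so low, nothing is read from the absence of calls among 5 genes. No test compared these shares, and binding of the activators was not measured.

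**Figure D3:**
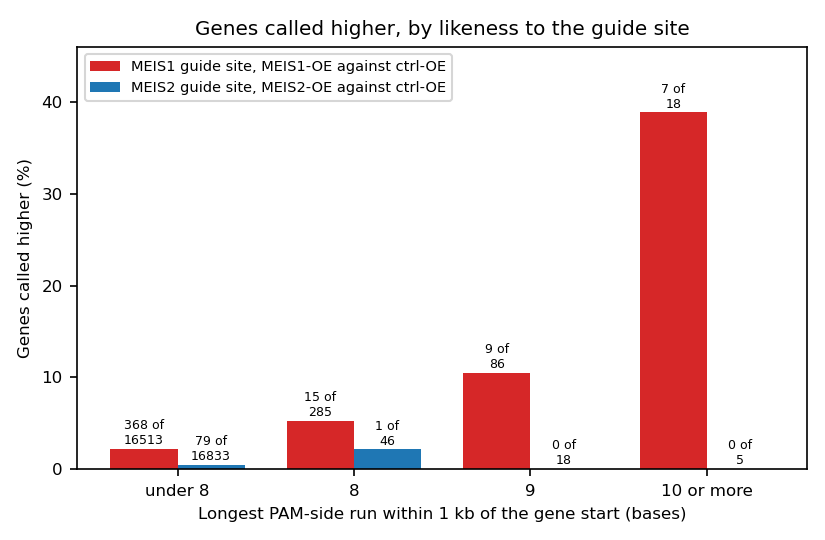
Percent of genes called higher (y axis, from 0) by the longest run of bases next to a PAM that they shared with the guide site within 1 kb of their start (x axis). Red bars are the MEIS1 site in MEIS1-OE and blue bars the MEIS2 site in MEIS2-OE, with the number of genes called and the number in each bin above them. The red bars stand at 2.23, 5.26, 10.5 and 38.9%, the last resting on 18 genes. The last blue bar rests on 5 genes, too few to set beside the red one.

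In MEIS2-OE, PIANP was the 1 gene of the 7 that passed. It was at 28.3, 34.0 and 36.5 CPM in MEIS2-OE, above the 21.5, 25.8 and 27.4 CPM of ctrl-OE in every library. The log2(fold-change) was 0.41 ± 0.08 (edgeR, adjusted P = 0.0029), under the fold threshold, and 1.35% of all tested genes passed by adjusted P alone and 1.05% were higher in MEIS2-OE without overlap. The ctrl-OE libraries also entered the comparison that chose PIANP, so the 2 comparisons are not independent. ZNF384 (0.02 ± 0.04, adjusted P = 0.98), PTMS (0.03 ± 0.06, 0.98), LAG3 (0.05 ± 0.14, 0.99), COPS7A (0.08 ± 0.05, 0.85), MLF2 (-0.05 ± 0.06, 0.98) and CD4 (0.14 ± 0.07, 0.72) did not pass. None of the 39 neighbours passed in MEIS2-OE by adjusted P alone in edgeR or DESeq2, and 2 had an unadjusted P under 0.05 in edgeR.

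In MEIS2-KO, PIANP was at 14.1, 16.2 and 18.8 CPM, overlapping the 15.3, 16.5 and 20.01 CPM of ctrl-KO, with a log2(fold-change) of -0.08 ± 0.09 (edgeR, adjusted P = 0.65). The activation and the knockout effect of MEIS2 on PIANP differed by 0.49 ± 0.12 on the log2 scale (edgeR, linear contrast in the same fit, adjusted P = 0.019), and 2.57% of all tested genes passed in this contrast. Without replicate 2, 3, 4 or 5 that difference stayed between 0.43 and 0.49 and its adjusted P rose to between 0.055 and 0.13. The contrast holds the ctrl-OE libraries, which also entered the choice of PIANP, so its P is not independent of that choice. MLF2 was at 242, 261 and 291 CPM in MEIS2-KO, above the 213, 234 and 237 CPM of ctrl-KO in every library, a log2(fold-change) of 0.20 ± 0.06 (adjusted P = 0.024). CD4 was at 19.9, 21.9 and 24.3 CPM in MEIS2-KO and 17.0, 18.5 and 21.3 CPM in ctrl-KO, which overlapped (0.22 ± 0.07, adjusted P = 0.048). Both stayed under the fold threshold, and 10.0% of all tested genes passed by adjusted P alone and 2.39% were higher in MEIS2-KO without overlap. MLF2 no longer passed by adjusted P without replicate 1, 2, 4 or 5, nor CD4 without replicate 2, 4, 5 or 6, with adjusted P up to 0.080 and 0.24.

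**Figure D4:**
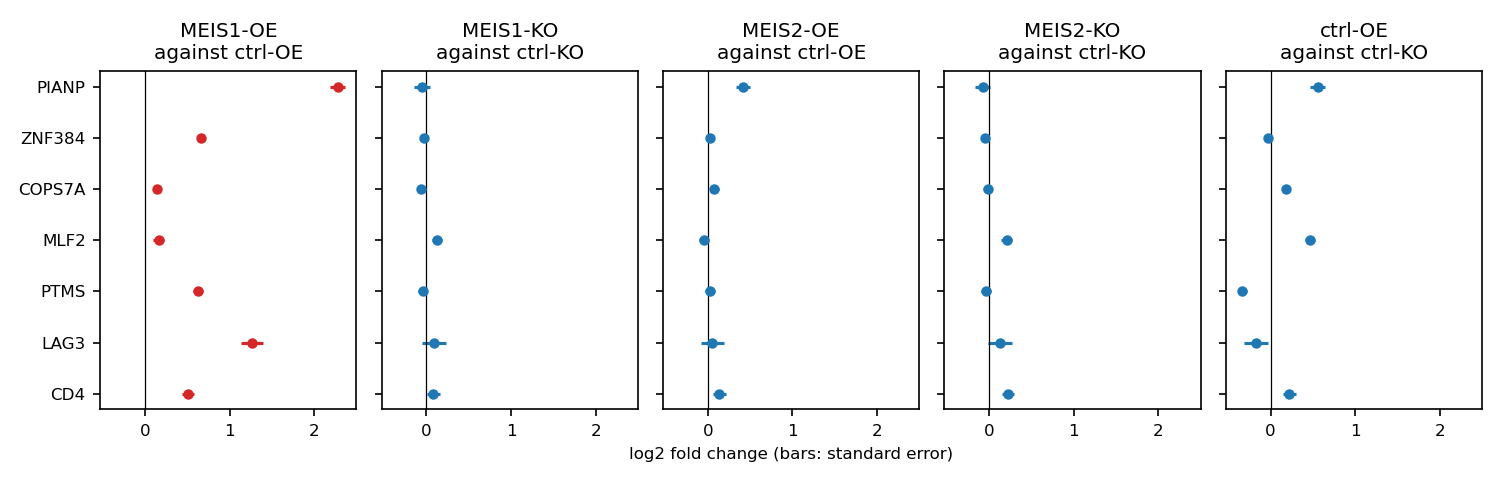
log2(fold-change) with its SE (x axis, bars are 1 SE) of the 7 genes (rows) in 5 comparisons (panels), MEIS1-OE in red. PIANP reaches 2.28 in MEIS1-OE and 0.41 in MEIS2-OE, and PTMS, at 0.63 in MEIS1-OE, stands at -0.34 between the control groups.

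The 2 control groups, which differ in the Cas9 system but carry no targeting guide, already differed in 5 of the 7 genes. PIANP was higher in ctrl-OE than in ctrl-KO, with 21.5 CPM in its lowest ctrl-OE library and 20.01 in its highest ctrl-KO library (log2(fold-change) 0.56 ± 0.09, adjusted P = 1.1e-06 by edgeR). MLF2 was also higher without overlap, at 294 to 354 against 213 to 237 CPM (0.47 ± 0.06, adjusted P = 2.4e-08). PTMS went the other way, at 328 to 435 against 441 to 482 CPM (-0.34 ± 0.06, adjusted P = 3.6e-06). CD4 (0.22 ± 0.07, adjusted P = 0.011) and COPS7A (0.18 ± 0.05, adjusted P = 0.0026) were higher with overlapping ranges, and ZNF384 (-0.04 ± 0.04, 0.43) and LAG3 (-0.18 ± 0.14, 0.31) did not pass. All 7 stayed under the fold threshold. The ctrl-OE libraries also entered the choice of PIANP, ZNF384 and LAG3, so these tests are not independent of it. Over all tested genes, 51.4% passed by adjusted P alone and 22.1% were called in this comparison, and 15.8% were higher and 16.0% lower in ctrl-OE without overlap. CD4 no longer passed without replicate 2 or 5, with adjusted P of 0.072 and 0.087.

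Of the 39 neighbours, 10 were called between the control groups, 25.6%, near the 22.1% of all genes. The 8 higher in ctrl-OE included LPAR5 (log2(fold-change) 2.41 ± 0.23, adjusted P = 1.4e-11 by edgeR), PTPN6, a phosphatase of blood cells (1.37 ± 0.18, adjusted P = 4.4e-08), CLSTN3, a synaptic adhesion protein (1.04 ± 0.10, adjusted P = 8.4e-12) and ENO2 (0.84 ± 0.04, adjusted P = 3.8e-19). ACRBP, VAMP1, SPSB2 and CD27-AS1 were higher by 0.83, 0.68, 0.66 and 0.59 on the log2 scale. CDCA3 (-0.75 ± 0.05) and NCAPD2 (-0.66 ± 0.04) were lower. None of the 39 neighbours was called in MEIS1-KO, MEIS2-KO or the MEIS2 contrast by edgeR or DESeq2, and 2, 7 and 3 of them had an unadjusted P under 0.05 in edgeR. Of all tested genes, 0.290%, 1.58% and 0.985% were called in these comparisons.

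Ordered by mean level, PIANP ran from MEIS1-OE (122.1 CPM) through MEIS2-OE (33.5) and ctrl-OE (25.2) to ctrl-KO (17.1), MEIS1-KO (16.5) and MEIS2-KO (16.2), and only the 3 knockout groups overlapped their neighbours in this order. For ZNF384 and LAG3, MEIS1-OE stood apart and the other 5 groups overlapped each neighbour. For PTMS the order was MEIS1-OE (565 CPM), the 3 knockout groups (462 to 448) and then MEIS2-OE (373) and ctrl-OE (366). Neighbours in this order did not overlap at either end of the knockout groups, although the highest MEIS1-KO library (517 CPM) was above the lowest MEIS1-OE library (513 CPM). CD4 had MEIS1-OE apart at 31.3 CPM, and neither COPS7A nor MLF2 had a gap anywhere in its order.

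Over the 36 libraries, the genes whose log2 CPM ran most like PIANP were THBS3, a thrombospondin (Pearson r = 0.983), NRBP1 (0.982), KIF5A, a neuronal kinesin (0.981), C3orf37 (0.980) and STAC2 (0.977), out of 13463 genes with a mean of at least 1 CPM. ZNF384 ran most like FAT2 (0.974), PPT2 (0.971), TTC9B (0.966), STK32B (0.965) and ZNF385C (0.959), and LAG3 like ARHGEF37 (0.867), ZNF384 (0.858), FAT2 (0.850), STK32B (0.846) and TTC9B (0.846). PIANP and ZNF384 correlated at 0.902, rank 85 for PIANP, and PIANP and PTMS at 0.498. Within the 18 activation libraries the latter was 0.961. These values share libraries and rest largely on the MEIS1-OE group, and are a description. Of the 11 genes other than the 7 in these lists, PPT2 was the 1 with a run of 8 or more to the MEIS1 guide site within 1 kb of its start, with 11 bases.

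The partners of these proteins came next. Of the 9 tested COP9 signalosome genes, none passed by adjusted P in MEIS2-OE, MEIS2-KO or the MEIS2 contrast, and of the 8 besides COPS7A none passed in MEIS1-OE or MEIS1-KO, by edgeR or DESeq2. Over all tested genes 1.35%, 10.0%, 2.57%, 9.10% and 1.46% passed in these 5 comparisons. In edgeR, 1 of the 8 had an unadjusted P under 0.05 in MEIS2-KO and 0 in the other comparisons with MEIS guides. Between the control groups 6 of the 9 passed, or 66.7% beside 51.4% of all tested genes, 5 as higher and 1, COPS3, as lower, by at most 0.29 on the log2 scale (COPS4, adjusted P = 1.0e-05 by edgeR), and none was called. PILRB, the activating relative of PILRA, was lower in MEIS1-OE by adjusted P (-0.21, adjusted P = 0.020), though not without replicate 2, 3, 4 or 5 (adjusted P up to 0.096), and PILRA itself had 5 to 40 counts a library. The paralogs MLF1, PTMA and COPS7B did not pass in MEIS1-OE, MEIS1-KO or MEIS2-OE by edgeR or DESeq2, with 1 unadjusted P under 0.05 in edgeR, in MEIS1-KO. PTMA, prothymosin alpha, was called lower in ctrl-OE against ctrl-KO (-0.59, adjusted P = 3.4e-14), in the same direction as its relative PTMS, and its fold fell under the threshold without replicate 3, 4 or 5. In MEIS2-KO it was lower by adjusted P (-0.16, adjusted P = 0.019), though not without replicate 2, 4 or 5 (up to 0.13).

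The list of LAG3 and CD4 ligands, chiefly MHC class II genes, also held CD74, HLA-DMA, HLA-DMB and CIITA, which are not ligands. Several of the listed genes were higher in the activation system. Of 14 listed, 9 were tested, and 6 of these, or 66.7%, were called higher in ctrl-OE than in ctrl-KO, beside 22.1% of all tested genes called in either direction. DESeq2 called 4. CD74, the invariant chain of MHC class II, was at 33.5 to 39.4 CPM in ctrl-OE against 7.53 to 11.01 CPM in ctrl-KO (1.91 ± 0.07, adjusted P = 1.1e-22 by edgeR). HLA-DMB and HLA-DMA, the peptide loading factor of class II, followed with 3.05 ± 0.28 (adjusted P = 6.8e-12) and 0.86 ± 0.14 (adjusted P = 1.2e-06), HLA-DMB with only 1 to 7 counts in the ctrl-KO libraries. HLA-DPA1 was also called (0.63 ± 0.12, adjusted P = 3.4e-05), with a fold under the threshold without replicate 1 or 4. HLA-DPB1 (0.11 ± 0.07, adjusted P = 0.18 by edgeR), FGL1 and IL16 did not pass. HLA-DRB1 and LGALS3 had at most 3 and 4 counts in a ctrl-OE library, and no longer passed with DESeq2 or without some replicates (adjusted P up to 0.21 and 0.14). CD74 passed in MEIS2-KO as higher (0.49 ± 0.08, adjusted P = 4.1e-05) and in MEIS2-OE as lower (-0.26 ± 0.07, adjusted P = 0.030), the latter not without replicate 1, 2, 4, 5 or 6. In the MEIS2 contrast CD74 was the 1 gene of the 9 called (-0.75 ± 0.10, adjusted P = 4.4e-06), beside 0.985% of all tested genes. HLA-DRA and CIITA, the class II master regulator, had at most 2 counts. None of the 9 passed in MEIS1-OE by edgeR or DESeq2, and 1 had an unadjusted P under 0.05 in edgeR.

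CD4 and LAG3 were read in cells with few other T cell transcripts. CD3D, CD3E and CD3G had at most 3, 4 and 3 counts in any library, CD2 and PTPRC at most 1 and 2, CD8A 7 and LCK 21. CD3E, a chain of the T cell receptor complex, was called higher in MEIS1-OE, where LAG3 and CD4 were also above their controls, with 10 counts in all 6 libraries together against 1 in those of ctrl-OE (adjusted P = 0.049 by edgeR). It was 1 of 6 tested T cell markers called there by edgeR, and DESeq2 called 0. It no longer passed without replicate 1, 4, 5 or 6, with adjusted P up to 0.18 over the alternatives. Of the 6 markers, 3 were above 0 in MEIS1-OE. CD3D (-0.94), LCK (-0.41) and CD3G (-0.27) were below 0 there and did not pass. Between the control groups LCK, a kinase of T cells, was called higher in ctrl-OE, with 10 to 21 counts a library against 0 to 1 in ctrl-KO (adjusted P = 4.2e-11), as was CD3D with 9 counts in all against 1 (adjusted P = 0.039, not with DESeq2 or without replicate 2, 3, 4, 5 or 6). The summed level of the 6 tested T cell markers was 0.511 to 1.26 CPM in ctrl-OE, 0.761 to 0.942 in MEIS1-OE and 0.00 to 0.302 in the knockout groups. The part of these transcripts in the LAG3 and CD4 values was not tested.

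Of the 5 myeloid markers, CD68, a lysosomal protein, was higher in the same 3 comparisons in which CD4 was. CD68 was called higher in ctrl-OE against ctrl-KO (2.10 ± 0.13, adjusted P = 7.1e-17 by edgeR) and in MEIS2-KO (0.63 ± 0.14, adjusted P = 0.0041), where its fold fell under the threshold without replicate 2. In MEIS1-OE it was higher by adjusted P (0.40 ± 0.10, adjusted P = 0.0073), though not without replicate 2, 4 or 6 (up to 0.10). The 5 myeloid markers summed to 9.31 to 13.9 CPM in MEIS1-OE and 7.78 to 11.3 CPM in ctrl-OE, and to 3.30 to 4.93 CPM in MEIS2-KO and 2.83 to 3.26 CPM in ctrl-KO, the latter pair without overlap. Most of each sum was CD68, at 7.15 to 11.9 CPM in MEIS1-OE and 2.04 to 3.37 CPM in MEIS2-KO. CD14, with at most 9 counts a library, was below 0 in all 3 comparisons without passing. It had -0.17 in MEIS1-OE, -0.92 in MEIS2-KO and -0.84 in ctrl-OE against ctrl-KO. AIF1 and SPI1 were above 0 in all 3, and CSF1R only between the control groups. CSF1R and SPI1, which define myeloid cells, had at most 6 counts each. CD4 stood at 31.3 CPM in MEIS1-OE on average, and the part of the myeloid markers in its differences was not tested.

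Markers of the neural cells also differed between groups. Of the 8 neural stem cell markers, 6 were called lower in ctrl-OE than in ctrl-KO, led by SOX1 (-1.54), SOX2 (-1.39), PAX6 (-0.85), MSI1 (-0.80) and FABP7 (-0.79). That was 75.0% of them, beside 22.1% of all tested genes called in either direction. In MEIS2-KO, PAX6 (-0.52 ± 0.10, adjusted P = 0.00069 by edgeR), FABP7 (-0.36 ± 0.08, 0.0045) and SOX1 (-0.33 ± 0.09, 0.016, not without replicate 2, 4 or 5) were lower and VIM higher (0.33 ± 0.07, 0.0011) by adjusted P, with none called. PAX6 was also lower in MEIS1-KO (-0.42 ± 0.10, adjusted P = 0.018 by edgeR, not without replicate 2, 3, 4 or 6). VIM was higher there (0.25 ± 0.07, 0.040, not without replicate 1, 3, 4, 5 or 6). These were 25.0% of the 8, beside 1.46% of all tested genes. DCX, a marker of young neurons with 2 to 31 counts a library, was called lower in MEIS2-KO (-0.997 ± 0.32, adjusted P = 0.038, not without replicate 2, 3, 4 or 5) and in ctrl-OE (-1.14 ± 0.31). SYP, synaptophysin, was called higher in ctrl-OE (1.40 ± 0.10) and was lower by adjusted P in MEIS2-KO (-0.50 ± 0.12, 0.0085) and MEIS1-KO (-0.57 ± 0.12, 0.012), neither without replicate 5. Of the 3 tested neuron markers, 66.7% passed by adjusted P in MEIS2-KO, beside 10.0% of all tested genes. Between the control groups 66.7% of the 3 were called, beside 22.1%. In MEIS1-OE, where 9.10% of all tested genes passed, the 1 neural marker that passed was SOX1, as lower (-0.31 ± 0.10, adjusted P = 0.034). It did not pass without replicate 1, 2, 4 or 6 (up to 0.35).

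RefSeq promoters (250 bases before to 50 after a start) were listed for PIANP, ZNF384, COPS7A and MLF2, in 7 windows. None of these 7 windows held TGACAG, the core motif of MEIS proteins, on either strand, against 15.8% of 35116 promoters, nor GGCGGAG followed by NGG, against 2.69%. The PIANP site lies outside its window.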

How the data were processed

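RNA-seq counts of 36 libraries of hNSC (Homo sapiens) were analysed. As deposited by the authors, the values are raw counts of reads per gene symbol, not normalised; libraries were sequenced from both ends and counted with HTSeq after alignment to hg19 with STAR. The submitters' processing notes give STAR 2.7.0a and Trimmomatic 0.39, and the methods of the paper name another STAR version. The annotation and strand setting of the counting are not given in the sources used here. Columns of per-sample values not used numbered 0.

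Genes with at least 10 counts over all libraries were tested in 1 fit of the 6 groups by the quasi-likelihood test of edgeR 4.0.16 in R 4.3.3, with TMM normalisation, a prior count of 0.125, two-sided P and Benjamini-Hochberg adjustment over 19689 genes. The SE was derived from the log2(fold-change) and the F statistic. A call needed both an adjusted P under 0.05 and a log2(fold-change) above 0.58 in size. CPM used TMM library sizes. No batch is named in the labels. Depth, 15429985 to 22940493 counts a library, limits LAG3 and other genes with few counts most. Within groups, 90 pairs of libraries differed by 2.74 to 38.6 times their sampling noise (chi-square per degree of freedom), so none was taken as a repeat. On simulated counts for MEIS2-OE against ctrl-OE the edgeR step was tested with known changes. DESeq2 1.42.0, another normalisation, other filters and priors, a replicate block, fits of only the groups compared, leave-one-out fits and other windows were tried.

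Symbols were placed on GRCh37 by GENCODE annotation, 20380 by symbol and 1548 by an older symbol of RefSeq, out of 28516. RefSeq promoter windows are of GRCh38.p14 and gave sequences, not coordinates. The activation guides themselves were not in a file that could be read for sequence. The 7 bases next to the PAM were taken from the methods, and the 20-base target sites were read from the reference at the single match, which has the same letters as the guide that the methods print. Runs next to NGG were counted on both strands with pysam 0.24.0. The genome-wide search and the MEIS2 site were added after the PIANP values had been seen.

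The 7 genes, the lists and the tests were chosen with earlier results of these data known. The 7 genes get no P in the MEIS1 comparisons. Named genes are the 7, genes within 500 kb called in a comparison or passing by adjusted P in MEIS1-OE, the 5 nearest tested genes on each side, the 5 most alike to PIANP, ZNF384 and LAG3, MEIS1, MEIS2 and, for each list, up to 5 genes called in a comparison, by largest fold. List genes that passed by adjusted P alone, did not pass, or had too few counts were named after their values were seen. So were PPT2, RNF39, USP38, PROK1, PRRT1, DAP and AGO1.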

Additional observations from a re-analysis of the deposited data

Results flagged for a closer look

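Dixon's test was run on the CPM of the 7 genes and GPR162 in each group of 6 libraries, 48 groups in all, and 1 group passed its critical value. Chance flags about 1 in 20 groups. COPS7A in replicate 3 of MEIS1-OE, at 41.5 CPM, stood below the other libraries of its group, the nearest of which was at 48.5 CPM. The same library was the lowest of MEIS1-OE for PIANP, ZNF384, MLF2, PTMS and GPR162, though not for LAG3 or CD4.

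The effects of MEIS2 activation and MEIS2 knockout on PIANP, each against its own control, differed by 0.49 ± 0.12 on the log2 scale (edgeR, linear contrast, adjusted P = 0.019, n = 6 a group). All 6 MEIS2-OE libraries were above all 6 of ctrl-OE, while MEIS2-KO overlapped ctrl-KO. Over the alternatives the adjusted P ran from 0.0062 to 0.13. The ctrl-OE libraries also entered the choice of PIANP, so this P is not independent of that choice.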

How the results depend on the processing

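Each value was recomputed under 13 alternative fits. The log2(fold-change) of PIANP in MEIS1-OE ran from 2.24 to 2.32, of ZNF384 from 0.64 to 0.69, of LAG3 from 1.24 to 1.32, of PTMS from 0.60 to 0.69 and of CD4 from 0.46 to 0.55. PIANP in MEIS2-OE ran from 0.39 to 0.43 with adjusted P from 0.00024 to 0.035. No value changed sign among those past the threshold.

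The labels do not say whether the same replicate numbers mark paired samples. Deviations of same-numbered libraries correlated at 0.0361 on average, above 0.1 in 16 of 90 pairs, against -0.0073 for other numbers. These values cannot settle whether the samples were paired. With the replicate number as a block, 2 of the 7 genes passed in the MEIS2 contrast instead of 1, MLF2 being added, and 1 neighbour, LPAR5, was called there. With only the groups compared in the fit, 2 of the 7 passed in the MEIS2 contrast, 2 neighbours were called in MEIS1-OE (RBP5 added) and 1 in MEIS2-KO (PTPN6). Without a filter beyond 1 count, 1 of the 7 passed in MEIS2-KO instead of 2. A window of 1000 kb gave 2 calls in MEIS1-OE, with CD9 added. By adjusted P alone, 9 neighbours passed in MEIS1-OE, 1 in MEIS2-KO (C1S) and 23 between the control groups. The cause was not tested.

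Leaving out a replicate of every group gave 0 to 2 of the 7 passing in MEIS2-KO and 0 to 1 in the MEIS2 contrast, 1 to 2 neighbours called in MEIS1-OE, LEPREL2 being added without replicate 3 or 6, and 0 to 1 in MEIS2-KO (PTPN6, without replicate 3). Over the 18 activation libraries alone, 3 of the 5 genes most like PIANP were kept, 1 of 5 for ZNF384 and 1 of 5 for LAG3. LAG3, with 72 to 240 counts a library, and genes with under 50 counts such as LPAR5 are limited by depth.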
